A study of Mus musculus with 8 samples.

Results

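The NF-kB subunits and their inhibitors were followed in macrophages grown from mouse bone marrow, at rest and after activation. The set comprised 10 genes chosen by name: the subunit genes Nfkb1, Nfkb2, Rel, Rela and Relb, and the inhibitor genes Nfkbia, Nfkbib, Nfkbie, Nfkbiz and Tnfaip3. Of 18138 gene symbols on the array, these 10 were represented by 11 of 25697 probes, Nfkbie by 2 probes and each other gene by 1. All 11 were among the 13868 probes detected on at least 2 of the 8 arrays and therefore tested.

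NF-kB is a family of dimeric transcription factors held in the cytoplasm of resting cells by IkB proteins. Signals such as LPS, a bacterial cell wall component sensed by Toll-like receptor 4, activate IkB kinases, the IkB protein is degraded, and the freed dimer enters the nucleus and switches on inflammatory genes. Several of these targets encode inhibitors of the pathway itself, among them IkBα (Nfkbia) and the ubiquitin-editing enzyme A20 (Tnfaip3), which makes the pathway a textbook case of negative feedback. In macrophages it works together with interferon signalling during M1, or classical, activation.

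Bone marrow came from female C57bl/6J mice, 8 weeks old, that were wild type (WT) or iNOS deficient, here written iNOS-/-. The iNOS-/- line carries the Nos2tm1Lau allele on a B6.129P2 background, per the methods. All cultures received GM-CSF at 10 ng/ml for 7 days. Unstimulated cells received nothing further, and M1 cells received LPS at 200 ng/ml together with IFN-γ at 10 ng/ml for 6 h. Each of the 4 groups was hybridised to 2 arrays. Nothing in the labels says whether the arrays of a group came from separate mice, so every error and p-value below measures the spread between arrays, which may be technical.

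Per array, 11833 to 12673 probes were detected, 46.0% to 49.3% of all, and the median absolute difference between arrays of one group was 0.161 to 0.187 on the log2 scale. Before scaling of the arrays to each other, mean intensity was 155.4 and 166.9 on WT M1 arrays and 208.2 to 224.5 on the others. The factors used for scaling were 0.813 to 0.892 for unstimulated arrays and 1.1 to 1.3 for M1 arrays. The one tested probe of Nos2, the gene that encodes iNOS, lies at position 3546 of the transcript and was not detected on any of the 4 unstimulated arrays. It read 7.05 and 7.47 (log2 intensity) on the WT M1 arrays and 7.50 and 7.67 on the M1 arrays labelled iNOS-/-, a difference of 0.32 ± 0.32 (SE, adjusted p = 0.445). The sources used here do not say which part of the transcript the allele removes, so this probe does not check the genotype, and the arrays are called "labelled iNOS-/-" throughout. All 7 macrophage markers tested were detected on both arrays of every group, with a summed scaled intensity between 23590 and 31940, of which Lyz alone gave 59.4% to 76.2%. Single markers did move. Between the M1 groups 4 were lower on the arrays labelled iNOS-/- and 2 higher (median -0.67), against 25.3% and 22.9% of all probes. Among the lower were Csf1r at -1.29 ± 0.12 (adjusted p = 0.00088) and Fcgr1 at -1.03 ± 0.10 (adjusted p = 0.000843). The 2 higher were Mertk at 0.99 ± 0.10 (adjusted p = 0.00116) and Emr1 at 0.41 ± 0.12 (adjusted p = 0.0336). Between the unstimulated groups 2 were lower, Cd68 (-1.55 ± 0.09, adjusted p = 0.000394) and Mertk (-1.45 ± 0.10, adjusted p = 0.000622), and 1 was higher, Fcgr1 (0.54 ± 0.10, adjusted p = 0.0113). Their part in the results below was not tested.

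Values below are probe intensities after scaling of the arrays to each other, either on the linear scale (scaled intensity) or as log2. Levels of different probes are not comparable, since each probe binds with its own efficiency. A change is called where the adjusted p of limma, taken over all 13868 probes, is under 0.05.

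In WT cells, stimulation raised 9 of the 10 genes, by 1.87 (Relb) to 3.56 (Nfkbie) on the log2 scale. Rela, the gene of the subunit p65, was the exception, with a change of 0.13 ± 0.08 (SE, adjusted p = 0.27). Over all probes 20.8% were called higher in this comparison, 14.3% lower and 35.1% in either direction. The median change was 2.16 over the 10 genes and 0.09 over all probes. On the arrays labelled iNOS-/-, all 10 genes rose on stimulation, where 25.2% of all probes were called higher, 25.1% lower and 50.3% either way. Changes ran from 1.21 (Rela) to 4.55 (Nfkbiz), with a median of 2.66 against 0.00 for all probes. Between the stimulated groups, all 10 genes stood higher in the one labelled iNOS-/-, by 1.14 (Relb) to 2.26 (Nfkb2). In that comparison 22.9% of all probes were called higher, 25.3% lower and 48.2% either way, and the median was 1.56 over the 10 genes and -0.03 over all probes. These comparisons share arrays. Called higher in all 3 were 9 of the 10 genes, all but Rela, and 7.59% of all probes.

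**Figure D1:**
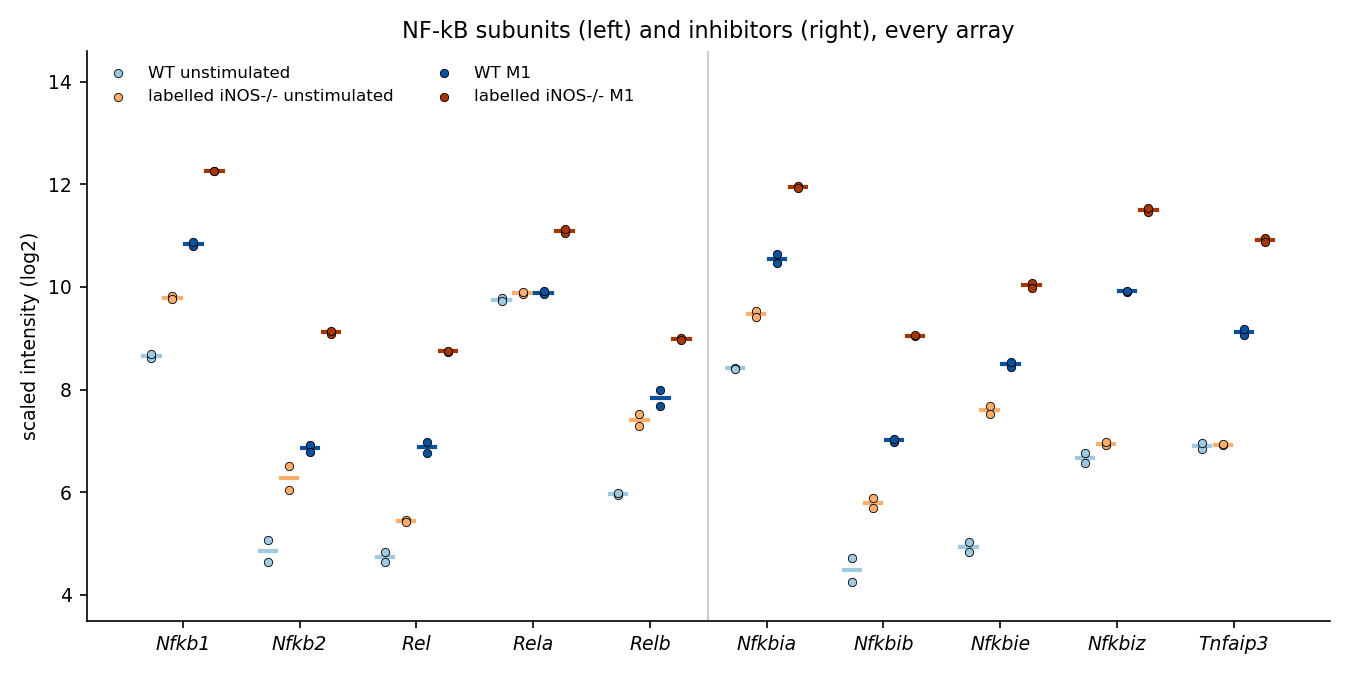
Scaled intensity (log2) of the main probe of each gene on every array. Points are arrays, short bars are group means of 2 arrays, subunit genes stand left of the grey line and inhibitor genes right. For each gene both M1 arrays labelled iNOS-/- lie above the 6 other arrays, and heights are not comparable between genes.

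Nfkb1 encodes p105, which is processed to the subunit p50, the usual partner of p65. Its scaled intensity was 394.5 and 415 on the WT unstimulated arrays, 871 and 901 on the unstimulated arrays labelled iNOS-/-, 1781 and 1872 on the WT M1 arrays, and 4870 and 4895 on the M1 arrays labelled iNOS-/-. The 4 groups did not overlap, in that order. Stimulation raised Nfkb1 4.51-fold in WT (log2 change 2.17 ± 0.08, SE, adjusted p = 7.52e-05) and 5.51-fold on the arrays labelled iNOS-/- (2.46 ± 0.08, adjusted p = 3.39e-05). The difference between these responses was 0.29 ± 0.11 (adjusted p = 0.0982, 95% interval 0.00 to 0.58) and was not called.

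Rela behaved unlike the other subunits. It was already bright on the WT unstimulated arrays, at 844 and 881, and read 926 and 959 on the unstimulated arrays labelled iNOS-/- and 925 and 966 on the WT M1 arrays. Only the M1 arrays labelled iNOS-/- stood apart, at 2132 and 2235. Before scaling, the WT arrays read 1001 and 946 unstimulated and 788 and 742 in M1, so the direction of the WT change rests on the scaling. The WT response had a 95% interval of -0.08 to 0.34, whereas the response on the arrays labelled iNOS-/- was 1.21 ± 0.08 (2.32-fold, adjusted p = 0.000234). The difference in response, 1.08 ± 0.12, was called (adjusted p = 0.0019), and so was the difference of 1.21 ± 0.08 between the M1 groups (2.31-fold, adjusted p = 0.000372).

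Rel encodes c-Rel, a subunit characteristic of blood cells. Its arrays read 24.9 and 28.8 in unstimulated WT, 42.7 and 43.8 in the unstimulated group labelled iNOS-/-, 109 and 127 in WT M1, and 428 and 434 in the M1 group labelled iNOS-/-. The groups again did not overlap. The stimulated groups differed 3.66-fold (log2 difference 1.87 ± 0.12, adjusted p = 0.000317). The response was larger by 1.18 ± 0.17 on the arrays labelled iNOS-/- (adjusted p = 0.00444), 9.97-fold there and 4.40-fold in WT.

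Nfkb2 and Relb form the pair of the non-canonical branch, in which the precursor p100 encoded by Nfkb2 is processed to p52 and RelB is set free. Nfkb2 measured 25.1 and 33.7 on the WT unstimulated arrays, 65.6 and 91.8 on the unstimulated arrays labelled iNOS-/-, 111 and 122 on the WT M1 arrays, and 542 and 568 on the M1 arrays labelled iNOS-/-. Relb measured 61.5 and 63.8, 156 and 184, 206 and 253, and 498 and 513 in the same order of groups. For both genes the unstimulated arrays labelled iNOS-/- lay well above those of WT and not far below WT M1. Between the M1 groups Nfkb2 differed by 2.26 ± 0.22 (4.78-fold, adjusted p = 0.000923) and Relb by 1.14 ± 0.14 (2.21-fold, adjusted p = 0.00194). Neither response was called different between the genotypes: the difference was 0.84 ± 0.31 for Nfkb2 (adjusted p = 0.079, 95% interval 0.07 to 1.62) and -0.29 ± 0.20 for Relb (adjusted p = 0.287, 95% interval -0.79 to 0.20).

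The classical inhibitors were next. Nfkbia encodes IkBα, which is resynthesised after NF-kB activation and takes the factor back out of the nucleus. It read 340 and 344 on the WT unstimulated arrays, 678 and 741 on the unstimulated arrays labelled iNOS-/-, 1413 and 1590 on the WT M1 arrays, and 3882 and 3989 on the M1 arrays labelled iNOS-/-. No group overlapped another. Stimulation raised it 4.38-fold in WT (2.13 ± 0.10, adjusted p = 0.000145) and 5.55-fold on the arrays labelled iNOS-/- (2.47 ± 0.10, adjusted p = 5.44e-05), and the difference of 0.34 ± 0.14 was not called (adjusted p = 0.106, 95% interval -0.01 to 0.70). Its probe, shown because every value of IkBα above rests on it, begins at position 606 of the transcript.

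Nfkbia probe: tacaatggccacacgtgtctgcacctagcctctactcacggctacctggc

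Nfkbib encodes IkBβ. Its arrays read 19.0 and 26.2, 51.8 and 59.0, 126 and 132, and 527 and 533, in the order WT unstimulated, labelled iNOS-/- unstimulated, WT M1 and labelled iNOS-/- M1. The stimulated groups differed by 2.04 ± 0.17 (4.11-fold, adjusted p = 0.000654), and the difference in response, 0.73 ± 0.24, missed the threshold (adjusted p = 0.062, 95% interval 0.12 to 1.35).

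Nfkbie, which encodes IkBε, differed most between the unstimulated groups. Its brighter probe, at position 2082 of the transcript, read 28.5 and 32.8 on the WT unstimulated arrays, 184 and 206 on the unstimulated arrays labelled iNOS-/-, 348 and 373 on the WT M1 arrays, and 1014 and 1080 on the M1 arrays labelled iNOS-/-. The rise in WT, 11.8-fold (3.56 ± 0.12, adjusted p = 5.41e-05), was the largest of the set. On the arrays labelled iNOS-/- the rise was 5.37-fold (2.43 ± 0.12, adjusted p = 8.51e-05), smaller by 1.13 ± 0.16 (adjusted p = 0.00458), starting from a level 6.37-fold above WT. The second probe lies at position 645 and was not detected on either WT unstimulated array, so only bounds are known for it: WT M1 was at least 14.2-fold brighter, the unstimulated group labelled iNOS-/- at least 5.12-fold and the M1 group labelled iNOS-/- at least 49.8-fold. The adjusted p was 0.00515 for WT M1 and 0.0158 for the unstimulated group labelled iNOS-/-. The latter call was lost on the compared arrays alone (adjusted p = 0.0715) and without replicate 1 (0.0703) or replicate 2 (0.0637) of that group. Between the M1 groups it differed by 1.81 ± 0.73, which was not called (adjusted p = 0.0931), although its arrays read 73.1 and 87.3 in WT M1 and 261 and 301 in the M1 group labelled iNOS-/-. It stayed uncalled under 11 of 18 alternatives and was called under 7, among them a floor of 16 (adjusted p = 0.000508) and these 4 arrays alone (adjusted p = 0.0106). The sequence of this probe is given because both probes report on one gene but differ in brightness.

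Nfkbie probe: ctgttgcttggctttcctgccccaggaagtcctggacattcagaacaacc

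Nfkbiz and Tnfaip3 were similar in pattern. Nfkbiz encodes IkBζ, a nuclear IkB protein that is itself induced and acts as a cofactor for secondary genes such as Il6. It read 94.7 and 109 on the WT unstimulated arrays, 121 and 126 on the unstimulated arrays labelled iNOS-/-, 963 and 971 on the WT M1 arrays, and 2815 and 2965 on the M1 arrays labelled iNOS-/-. Tnfaip3 read 115 and 125, 121 and 123, 534 and 577, and 1886 and 1974 in the same order. The unstimulated groups overlapped for Tnfaip3 and lay close together for Nfkbiz, while the M1 groups were well apart. Rela shared this in part, with only its M1 groups called different, but its rise in WT was not called.

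The M1 groups differed by 1.58 ± 0.10 for Nfkbiz (2.99-fold, adjusted p = 0.000322) and by 1.80 ± 0.09 for Tnfaip3 (3.48-fold, adjusted p = 0.000213). Both responses were larger on the arrays labelled iNOS-/-. Nfkbiz rose 9.50-fold in WT and 23.5-fold there, a difference of 1.30 ± 0.14 (adjusted p = 0.00202). Tnfaip3 rose 4.64-fold in WT and 15.8-fold there, a difference of 1.77 ± 0.13 (adjusted p = 0.000667), the largest of the set.

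**Figure D2:**
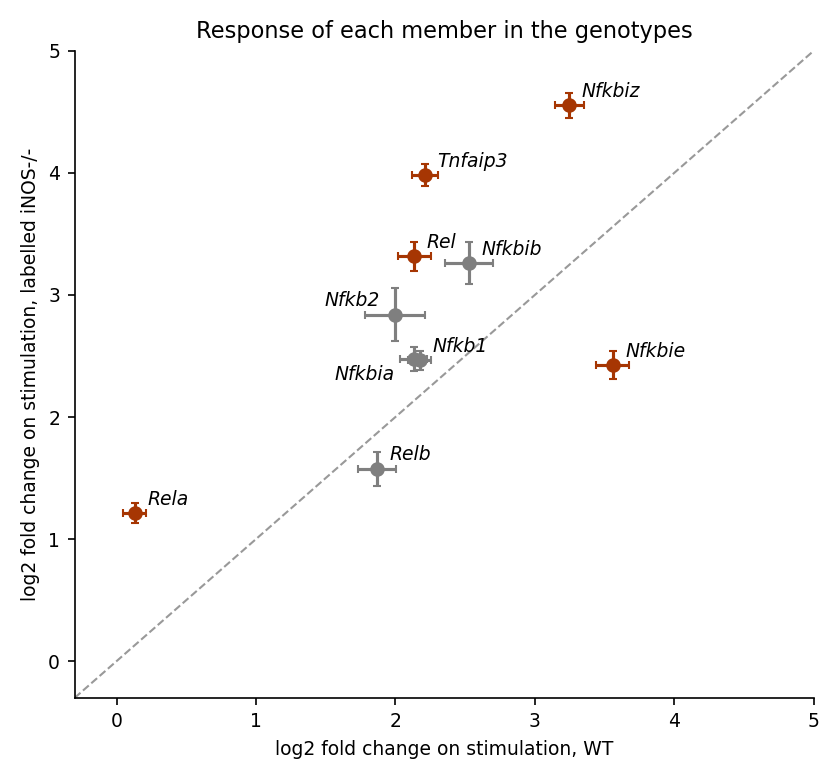
Log2 change on stimulation in WT (horizontal) against that on the arrays labelled iNOS-/- (vertical) for the 10 genes, with SE bars from the fit over 8 arrays. The dashed line marks equal responses and coloured points are genes whose difference in response was called. Tnfaip3, Nfkbiz, Rel and Rela lie above the line, Nfkbie lies below it, and the 5 grey genes were not called.

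Across the set, the difference in response was called higher for 4 genes (Tnfaip3, Nfkbiz, Rel, Rela) and lower for 1 (Nfkbie), and was not called for 5. Over all probes it was called for 42.0%, with 19.4% higher and 22.6% lower, so the members' count lies near that share. The count depended on the processing: 8 genes were called after neqc and 9 with an intensity trend. For Nfkb1 the sign depended on the scaling, with a difference of -0.34 after neqc (adjusted p = 0.0471) and -0.37 after quantile normalization (adjusted p = 0.0434). Nfkbia also turned, to -0.22 and -0.25, without being called. The second probe of Nfkbie, not called at -1.88 ± 1.02 (adjusted p = 0.199), was called in the opposite direction under other processing, with 0.54 after neqc (adjusted p = 0.0212) and 0.96 with a floor of 16 (adjusted p = 0.0112). Without replicate 2 of WT unstimulated it was called lower (-3.00, adjusted p = 0.00334).

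Before any stimulus, 7 of the 10 genes were already higher on the arrays labelled iNOS-/- than in WT, while 16.7% of all probes were called higher, 15.4% lower and 32.2% either way. The differences ran from 0.69 ± 0.12 for Rel (adjusted p = 0.0103) to 2.67 ± 0.12 for Nfkbie (adjusted p = 0.000142). Relb was higher by 1.44 ± 0.14, Nfkb2 by 1.42 ± 0.22, Nfkbib by 1.31 ± 0.17, Nfkb1 by 1.13 ± 0.08 and Nfkbia by 1.05 ± 0.10. The 3 genes not called were Nfkbiz, at 0.28 ± 0.10 (adjusted p = 0.0968, 95% interval 0.02 to 0.53), Rela, at 0.13 ± 0.08 (adjusted p = 0.298, 95% interval -0.08 to 0.34), and Tnfaip3, at 0.03 ± 0.09 (adjusted p = 0.848, 95% interval -0.20 to 0.26). The sign for Tnfaip3 turned under neqc and quantile normalization. Rela was called under neqc (0.26, adjusted p = 0.0482) and Nfkbiz with an intensity trend (0.28, adjusted p = 0.022). The call for Rel was lost without replicate 2 of WT unstimulated (0.56, adjusted p = 0.0547) and without replicate 1 of the unstimulated group labelled iNOS-/- (0.68, adjusted p = 0.0541).

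The unstimulated group labelled iNOS-/- thus lay between both WT groups for most genes. The share of all probes lying so was not counted. Over all probes the median absolute log2 difference was 0.33 between this group and WT M1. It was 0.45 between the unstimulated groups and 0.49 for stimulation in WT. WT M1 exceeded the unstimulated group labelled iNOS-/- for 7 genes, where 9.80% of all probes were called higher, 3.84% lower and 13.6% either way. This comparison was added after the data were seen. Tnfaip3 (2.19 ± 0.09, adjusted p = 0.000349) and Nfkbiz (2.97 ± 0.10, adjusted p = 0.000184) showed the widest gaps. Nfkb2 (0.58 ± 0.22, adjusted p = 0.145), Relb (0.43 ± 0.14, adjusted p = 0.105) and Rela (0.00 ± 0.08, adjusted p = 0.983) were not called. The call for Nfkbib was lost whenever any array of the compared groups was left out, with changes of 1.13 to 1.31. The call for Nfkbie was lost without replicate 2 of WT M1 (0.835) or of the unstimulated group labelled iNOS-/- (0.80). It was also lost where its probes were averaged (1.18, adjusted p = 0.117), and the fit on the compared arrays lost Nfkbie alone (adjusted p = 0.0578).

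By array, both M1 arrays labelled iNOS-/- lay above the 6 other arrays for 10 of 10 genes, a pattern held by 26.2% of all tested probes. Both WT unstimulated arrays lay below the 6 others for 9 of 10 genes, against 17.6% of all probes, Tnfaip3 being the exception. A complete order without overlap, from WT unstimulated through labelled iNOS-/- unstimulated and WT M1 to labelled iNOS-/- M1, was found for 8 of 10 genes and in 4.56% of all probes. The exceptions were Rela, whose WT M1 arrays overlapped the unstimulated arrays labelled iNOS-/-, and Tnfaip3, whose unstimulated groups overlapped. None of these array patterns was among the planned comparisons, and the order includes the step that was added after the data were seen. The shares over all probes are therefore given as context and not as a test.

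**Figure D3:**
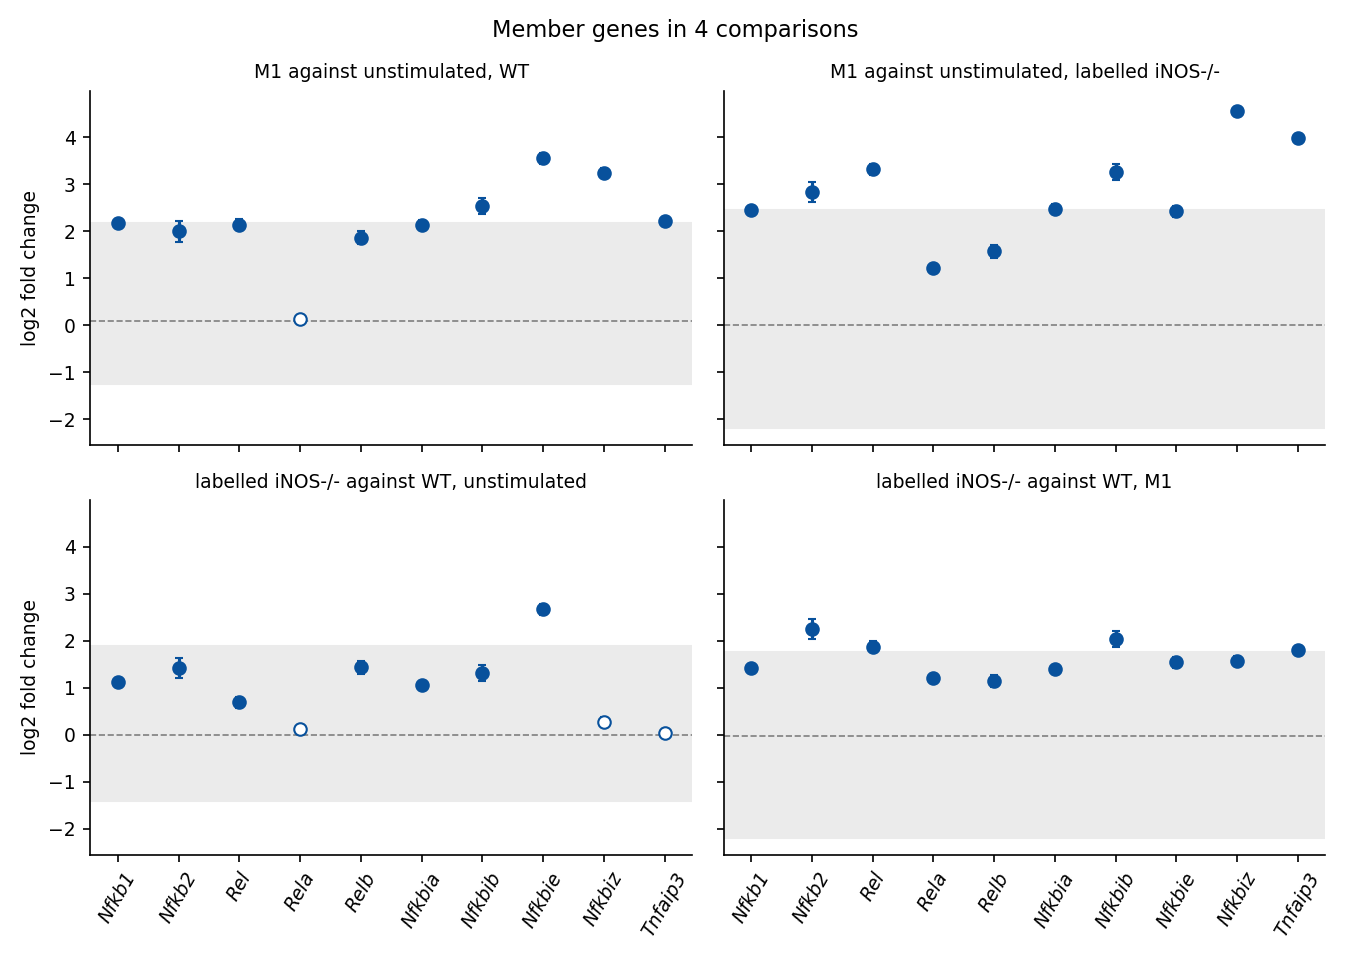
Log2 fold change with SE of the 10 genes in 4 comparisons. Filled points were called at adjusted p under 0.05, the grey band spans the 5th to 95th percentile of all 13868 probes and the dashed line is their median. On the M1 arrays all 10 points are filled and above 1, and on the unstimulated arrays Rela, Nfkbiz and Tnfaip3 are open.

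Promoter sequence was examined because the genes rose together and because NF-kB binds a short DNA element, the kappaB site, at many of its targets. RefSeq promoter windows (build GRCm38.p6, 250 bases before to 50 after an annotated start) were at hand for 7 of the 10 genes, in 10 windows, since Nfkb2 has 3 starts and Tnfaip3 has 2. No windows were used for Nfkb1, Relb and Nfkbiz. Windows were searched on both strands for the kappaB consensus. It was found in 7 of 10 windows, against 8.46% of all 32851 windows. By gene it was found in 5 of 7, and no share over all genes was computed. Every window of Nfkb2 held a match, and a gene with several windows has more chances of one. One site of Nfkb2 lies in both of its downstream windows and is counted in each.

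The 150 bases before the start are shown for genes with a match, to show where it lies, and for the 2 genes without one, Rela and Nfkbib. Each runs 5′ to 3′ on the strand of the gene, with matches to the kappaB consensus in capitals (overlapping matches form one run).

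Nfkbia (chr12:55492648-55492797, minus strand): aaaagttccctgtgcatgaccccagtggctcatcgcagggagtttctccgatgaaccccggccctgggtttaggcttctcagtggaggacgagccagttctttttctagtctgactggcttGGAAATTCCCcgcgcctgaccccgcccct

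Rel (chr11:23770970-23771119, minus strand): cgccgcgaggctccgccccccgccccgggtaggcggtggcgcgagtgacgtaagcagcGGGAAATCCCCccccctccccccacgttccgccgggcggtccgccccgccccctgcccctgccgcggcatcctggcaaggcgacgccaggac

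Nfkb2, first start (chr19:46304587-46304736, plus strand): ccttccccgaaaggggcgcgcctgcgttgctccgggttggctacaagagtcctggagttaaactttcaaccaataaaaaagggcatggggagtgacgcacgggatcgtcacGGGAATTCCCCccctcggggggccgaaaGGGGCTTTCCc

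Tnfaip3, upstream start (chr10:19015411-19015560, minus strand): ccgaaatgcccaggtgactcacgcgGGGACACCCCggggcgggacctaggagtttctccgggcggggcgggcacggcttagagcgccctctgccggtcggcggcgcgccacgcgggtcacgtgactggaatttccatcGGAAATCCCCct

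Nfkbie (chr17:45555550-45555699, plus strand): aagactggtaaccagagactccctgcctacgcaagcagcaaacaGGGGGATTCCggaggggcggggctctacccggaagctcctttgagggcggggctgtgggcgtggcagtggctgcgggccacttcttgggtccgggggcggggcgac

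Rela (chr19:5637391-5637540, plus strand): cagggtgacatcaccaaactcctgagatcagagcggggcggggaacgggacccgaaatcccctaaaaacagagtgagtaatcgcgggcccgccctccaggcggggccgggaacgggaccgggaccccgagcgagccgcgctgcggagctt

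Nfkbib (chr7:28766645-28766794, minus strand): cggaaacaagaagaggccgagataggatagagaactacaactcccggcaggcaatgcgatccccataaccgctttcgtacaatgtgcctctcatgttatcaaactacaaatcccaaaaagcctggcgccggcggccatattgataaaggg

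Among matches before a start, the nearest began 29 bases before it in Nfkbia, 12 in Tnfaip3 and 11 in Nfkb2. Those of Rel (92) and Nfkbie (106) lay farther out. In Nfkb2 a match also began 10 bases after the second start. Rela, which did not pass the test in stimulated WT cells, and Nfkbib, which rose 5.77-fold there, had no match. A link between match and response was not tested. A match describes the letters of the window only, and binding was not measured in these data.

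**Figure D4:**
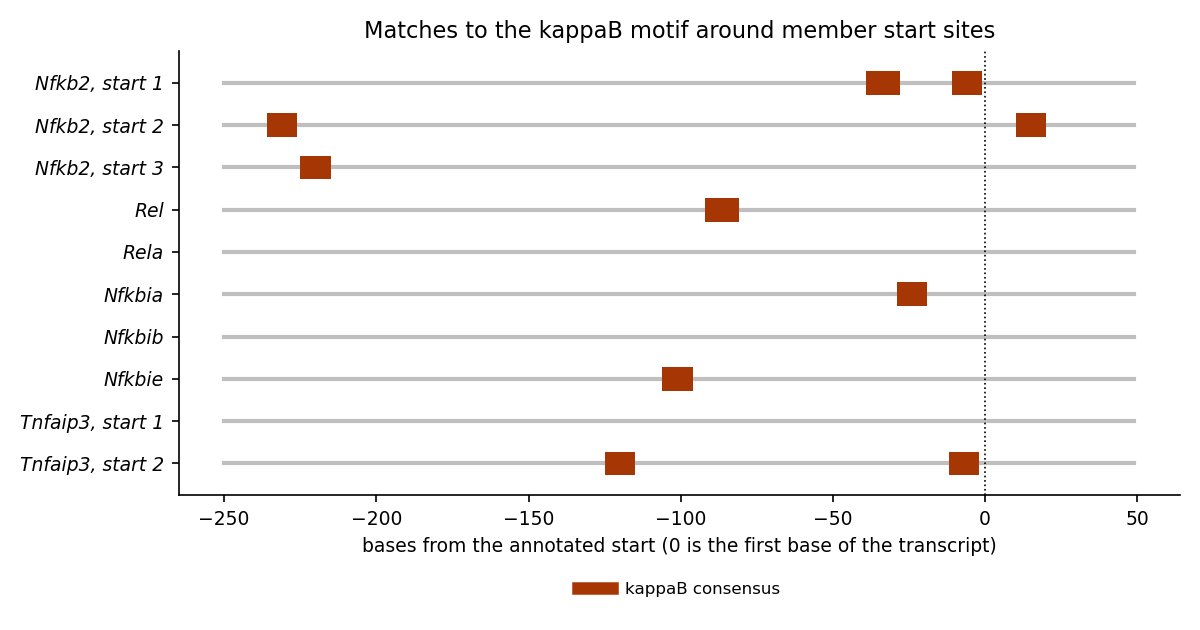
Positions of motif matches in the 10 RefSeq promoter windows of 7 genes, in bases from the annotated start. Brown blocks are matches to the kappaB consensus. Matches lie within 130 bases before the start in Rel, Nfkbia, Nfkbie, the first start of Nfkb2 and the second of Tnfaip3, and Rela and Nfkbib have none.

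Other genes of the pathway were read from lists drawn from general knowledge. Between the M1 groups 22.9% of all probes were called higher, 25.3% lower and 48.2% either way. On stimulation 20.8% were higher and 14.3% lower in WT, and 25.2% and 25.1% on the arrays labelled iNOS-/-. Between the unstimulated groups 16.7% were higher and 15.4% lower. The receptor-proximal adaptors carry the signal from Toll-like and TNF receptors. Of 10, 4 were higher and 2 lower on the M1 arrays labelled iNOS-/- than on WT M1 arrays, with a median of 0.28. That count lies near the share over all probes. Irak3, a kinase-dead brake on Toll-like receptor signalling, was higher by 1.16 ± 0.11 (adjusted p = 0.000877), and Irak2 by 0.85 ± 0.16 (adjusted p = 0.00958). Irak4, the kinase at the head of the cascade, was lower by 0.81 on the log2 scale (SE 0.15, adjusted p = 0.00818). In WT, stimulation raised 1 of the 10, the adaptor Myd88 (1.02 ± 0.10, adjusted p = 0.00142), and lowered 1, Ripk1 (-0.47 ± 0.10, adjusted p = 0.0202), whose call was lost under 5 of 17 alternatives.

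Next were the kinases that free NF-kB. Of 11 tested, 7 were higher and 1 was lower on the M1 arrays labelled iNOS-/-, with a median of 0.58. Map3k14 encodes NIK, the kinase that starts processing of p100. It was higher there by 1.44 ± 0.11 (adjusted p = 0.000474) and already higher by 2.62 ± 0.11 between the unstimulated groups (6.15-fold, adjusted p = 0.000134). Map3k7, which encodes TAK1, was higher by 1.11 ± 0.14 (adjusted p = 0.00211). Tab1, a partner of TAK1 listed on the array as Map3k7ip1, was lower (-0.56 ± 0.10, adjusted p = 0.0084). In WT, 4 of the 11 rose on stimulation and none fell, led by Map3k14 (2.38 ± 0.11, adjusted p = 0.000138) and Tab2 (0.93 ± 0.09, adjusted p = 0.00169).

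Among 8 tested partners of A20 and other inhibitors, 4 were higher and 2 lower between the M1 groups, with a median of 0.66. The median was 0.32 after neqc and after quantile normalization, with the counts at 4 and 2 in both. Zc3h12a, which encodes the RNase Regnase-1, was higher by 2.07 ± 0.13 (adjusted p = 0.000327) and the A20 adaptor Tax1bp1 by 1.10 ± 0.09 (adjusted p = 0.000518). Pdlim2, an E3 ligase for p65, was lower (-1.95 ± 0.20, adjusted p = 0.00109), as was Tnip2 (-0.96 ± 0.12, adjusted p = 0.00206). Tax1bp1 fell on stimulation in WT (-0.97 ± 0.09, adjusted p = 0.00119) and rose on the arrays labelled iNOS-/- (0.93 ± 0.09, adjusted p = 0.000627).

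Of the atypical IkB proteins and kappaB-Ras genes, 4 of 5 were tested, and 2 were higher between the M1 groups, Bcl3 (1.19 ± 0.13, adjusted p = 0.00138) and Nfkbid, which encodes IkBNS (0.96 ± 0.07, adjusted p = 0.000514). Nfkbil1 (1.02 ± 0.42, adjusted p = 0.103) and Nkiras2 (0.23 ± 0.09, adjusted p = 0.1) were not called, and Nkiras1 was not tested. In WT, stimulation raised Bcl3 alone of the 4 (0.995 ± 0.130, adjusted p = 0.00402).

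Textbook target genes of NF-kB were read last. Stimulation raised 20 of 21 in WT and 21 of 21 on the arrays labelled iNOS-/-, and 20 of 21 were higher in the latter with stimulation, by a median of 1.58. Cd40, a receptor that itself signals to NF-kB, was higher by 4.84 ± 0.08 between the unstimulated groups (adjusted p = 2.12e-05), where 11 of the 21 were called. Il6 was not detected on the WT unstimulated arrays and was at least 204-fold brighter in WT M1 (adjusted p = 1.96e-05). Ptgs2, which encodes the prostaglandin synthase COX-2, was not detected on any unstimulated array and differed by 2.94 ± 0.24 between the M1 groups (adjusted p = 0.000563). With undetected genes at their bounds, the median of the list was 3.42 in WT and 4.07 on the arrays labelled iNOS-/-.

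**Figure D5:**
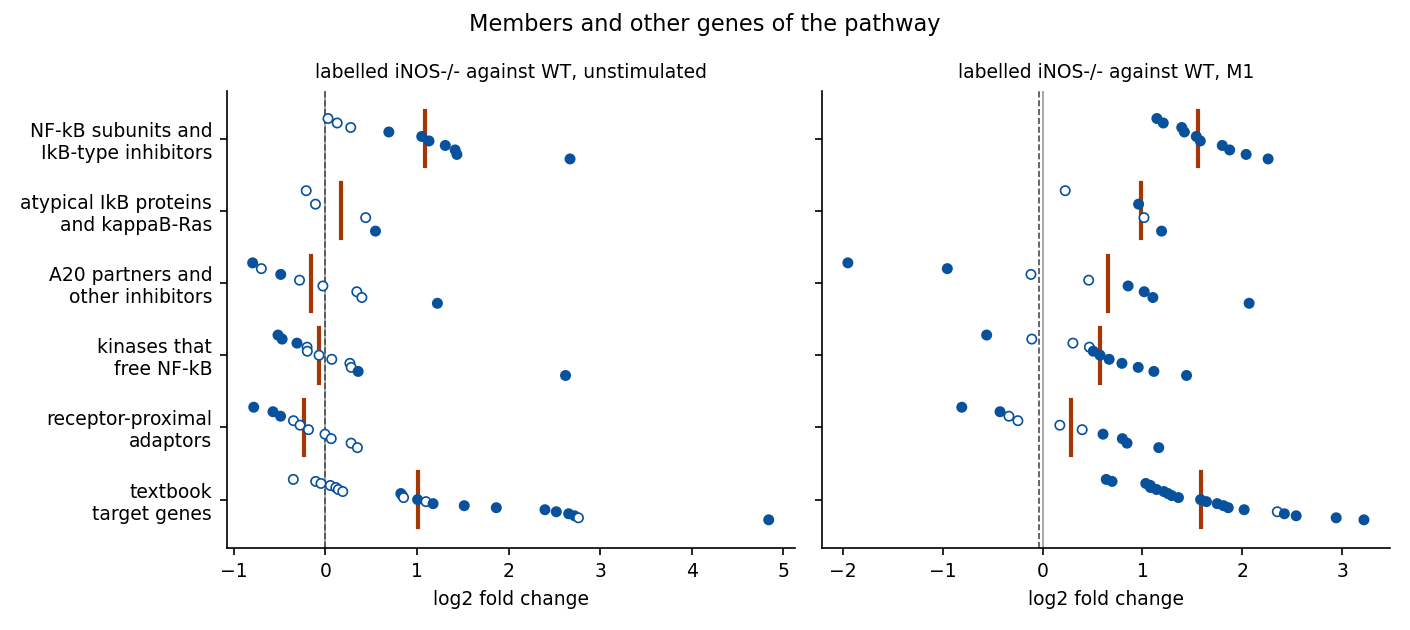
Log2 difference between arrays labelled iNOS-/- and WT arrays, unstimulated (left) and M1 (right), for the 10 members and 5 lists of other pathway genes. Each point is a gene (filled if called), brown bars are list medians and the dashed line is the median of all probes. The members' median is 1.56 on the right, beside 1.58 for the target genes and 0.28 for the receptor-proximal adaptors.

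Most similar in pattern to Nfkb1 over the 8 arrays, among 9687 probes detected on all of them, were Fpr2 (Pearson r = 0.9994), BC006779 (0.9987) and Nfkbia (0.9985). For Nfkbia these were BC006779 (0.9989), Csnk1d and Nfkb1 (both 0.9985). For Nfkbiz they were the interferon-induced genes Ifi47 (0.9997), Ifit3 (0.9993) and Ifit2 (0.9986). The 8 arrays form 4 groups, so these values mainly describe the levels of the 4 group means relative to each other.

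Markers of other cells moved between the same groups, and their part in the results above was not tested. Over all probes, 20.8% were called higher on stimulation in WT and 16.7% between the unstimulated groups. Between the M1 groups 22.9% were higher and 25.3% lower, and 22.6% were lower for the difference in response. Of 7 tested dendritic cell markers, 5 rose on stimulation in WT and 5 were higher in the unstimulated group labelled iNOS-/- than in WT. Between the M1 groups 3 were higher, 1 was lower and 3 were not called, and for the difference in response 5 were lower and 2 were not called. Their summed scaled intensity was 292 to 321 on WT unstimulated arrays, 5711 to 5766 on WT M1, 4013 to 4183 on unstimulated arrays labelled iNOS-/- and 16900 to 17940 on M1 arrays labelled iNOS-/-, but Il4i1 alone gave 79.3% to 83.9% of it in the latter 3 groups. Without the brightest marker of each group the mean sum was 114, 1156, 660 and 3603. That marker was Itgax in unstimulated WT (62.7% of its sum) and Il4i1 in the other groups. The first of these sums therefore leaves out another gene than the rest and is not directly comparable with them. Cd209a was not detected in WT unstimulated or labelled iNOS-/- M1 cells, Clec9a was not detected in either group labelled iNOS-/-, and Flt3 and Xcr1 did not pass the filter. For 7 tested granulocyte markers the sum was 1125 to 1148, 1399 to 1505, 1681 to 1747 and 3861 to 3989 in the same order. S100a8 alone gave 73.7% to 81.5% of it. S100a9, Ngp and Camp were undetected in unstimulated WT, Ela2 in M1 cells labelled iNOS-/-, and Ly6g and Mpo were untested. Called higher were 4 on stimulation in WT, 5 between the unstimulated groups and 3 between the M1 groups. Mmp8 was lower on stimulation in WT (-1.73 ± 0.21, adjusted p = 0.00313) and between the unstimulated groups (-1.33 ± 0.21, adjusted p = 0.00748). All 8 tested dividing cell markers were higher in WT M1 than in unstimulated WT and higher in the unstimulated group labelled iNOS-/- than in WT, but lower in M1 cells labelled iNOS-/- than in WT M1. Their sums were 883 to 961, 2733 to 2825, 3250 to 3257 and 1164 to 1184. In such bulk RNA, more cells of a type and more RNA per cell cannot be told apart.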

How the data were processed

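RNA of bone marrow-derived macrophages was measured on 8 Illumina bead arrays, 2 for each of 4 groups taken from the labels. The labels name the MouseRef-8 and the MouseWG-8 array in different fields. The authors deposited one intensity and one detection p-value for each probe on each array, before any normalization between arrays. The submitters' processing notes name GenomeStudio and limma 3.14.4, and per the methods background was subtracted, arrays were normalized on rank-invariant probes, and negative values were set to 1 ahead of the log2 step. The file header names no background subtraction, yet 25.2% to 27.2% of intensities lie below 0, so none was subtracted here. No value column lacked a sample (0 columns).

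The mean of all arrays served as reference. Every array was brought to it by a robust regression with no intercept (rlm of MASS 7.3.60.0.1), using probes whose rank changed by under 0.05 of itself, between 0.5 and 0.9 of all ranks. Values under 1 were set to 1 and log2 was taken. A probe was tested if 2 or more arrays detected it (detection p-value under 0.05). One coefficient per group was estimated from the 8 arrays together in limma 3.58.1 (lmFit, eBayes, R 4.3.3), and adjusted p-values are Benjamini-Hochberg over 13868 probes. The number of arrays limits the precision. A gene with several probes is counted by its brightest tested probe. For a probe undetected on both arrays of a group, the dim group was set, per array, to whichever was higher, the measured value or the dimmest signal that passed detection, and the fold is given as "at least". Promoter windows are RefSeq's, searched as plain letters.

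The members and lists were chosen with earlier results of these data known, and gene lists come from general knowledge. All members and the atypical IkB list were to be named, with up to 2 called genes each way from every other list and comparison, of which some are given here, and the 3 probes most correlated with Nfkb1, Nfkbia and Nfkbiz. Tnip3, N4bp1 and Itch had no matched probe. In the comparison of the M1 groups, the fit was tested on simulated data. There 82 of 100 probes changed by 1 and 100 of 100 changed by 2 on the log2 scale were called, with 18 unchanged probes among 13868. Only these brighter probes were changed, in the M1 group labelled iNOS-/- alone, with independent normal noise. In the real data 48.2% of probes were called between the M1 groups, so the simulated rates may not hold there. The alternatives tried were a floor of 16, neqc, quantile normalization, a stricter detection filter or none, a replicate block, an intensity trend, a fit on the compared groups, a mean over probes, an intercept in the scaling line, and each replicate left out.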

Additional observations from a re-analysis of the deposited data

Results flagged for a closer look

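A difference in response means that the log2 change on stimulation was not the same in both genotypes, by the interaction term of limma. Among the subunits and inhibitors it was called for 5 genes, given as labelled iNOS-/- minus WT. The difference was 1.77 for Tnfaip3, 1.30 for Nfkbiz, 1.18 for Rel and 1.08 for Rela, and it was -1.13 for Nfkbie. Over all probes 42.0% were called. The call for Nfkbie was lost where its probes were averaged (-1.51; adjusted p = 0.0848), and its second probe, undetected in unstimulated WT, was not called (-1.88, adjusted p = 0.199). That probe was called in the opposite direction under neqc (0.54, adjusted p = 0.0212) and with a floor of 16 (0.96, adjusted p = 0.0112), and lower without replicate 2 of WT unstimulated (-3.00, adjusted p = 0.00334). The calls for the other 4 genes held under every alternative run for them.

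Other genes of the pathway were called as well. Among atypical IkB proteins and kappaB-Ras genes, Nfkbid differed by 1.07, Bcl3 by 0.65 and Nkiras2 by 0.44, and the calls for Bcl3 and Nkiras2 were lost under 8 and 12 of 16 alternatives. Among inhibitors, Zc3h12a differed by 2.56, Tax1bp1 by 1.90, Tnip2 by -1.30 and Pdlim2 by -3.17. The kinase Map3k8 differed by 1.48, Tbk1 by 1.11, Tab1 (Map3k7ip1) by -0.83 and Map3k14 by -1.18. Of the adaptors, Irak3 differed by 1.65, Irak2 by 1.12 and Irak4 by -0.87, the last lost under 5 of 16 alternatives. Of the target genes, Gadd45b differed by 2.77, Ccl2 by -1.23 and Cd40 by -3.09, and the call for Ccl2 was lost under 6 of 16 alternatives.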

How the results depend on the processing

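The alternatives gave 1177 values of the member probes' changes beside those reported. Of these, 1111 kept direction and side of the threshold, 33 became called, 18 lost a call and 15 changed sign. The number of members called stayed at 9 for stimulation in WT, 10 for stimulation in the group labelled iNOS-/- and 10 between the M1 groups under every replicate left out. It ran from 6 to 7 between the unstimulated groups, from 5 to 6 for the difference in response (8 under neqc, 9 with an intensity trend) and from 5 to 7 for WT M1 against the unstimulated group labelled iNOS-/-. Under neqc, 8 members were called higher between the unstimulated groups. In a fit of the 4 M1 arrays alone, all 10 members were called with at least a 2-fold difference, as were 3158 probes (22.8% of all tested).

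Signs turned for Tnfaip3 between the unstimulated groups (neqc -0.027, quantile -0.031, from -0.06 to 0.06 with a replicate left out, the lowest without replicate 1 of WT unstimulated), and for the difference in response of Nfkb1 (neqc -0.34, quantile -0.37), Nfkbia (neqc -0.22, quantile -0.25) and the second probe of Nfkbie (neqc 0.54, floor of 16 0.96, both called). For Rela in WT M1 against the unstimulated group labelled iNOS-/- the value was -0.11 under neqc and -0.12 under quantile normalization, and ran from -0.028 to 0.036 with a replicate left out. Nfkbil1 turned for stimulation in WT (neqc -0.08, quantile -0.25, intercept -0.42, from -0.333 without replicate 2 of WT M1 to 0.558 without replicate 1 of WT M1) and reached 0 between the unstimulated groups with a floor of 16. The cause was not tested.

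Probes called for stimulation in WT numbered 4869 and ran from 3163 to 4960 with a replicate left out (3198 and 3163 without WT unstimulated replicate 1 and 2, 3238 without WT M1 replicate 2). The other ranges were 5556 to 6755 for stimulation in the group labelled iNOS-/- (6974 with all arrays), 5208 to 6317 between the M1 groups (6687), 2778 to 4529 between the unstimulated groups (4459, with 2837 and 2882 without WT replicate 1 and 2, 2778 and 2823 without labelled iNOS-/- replicate 1 and 2), and 4582 to 5254 for the difference in response (5828). For WT M1 against the unstimulated group labelled iNOS-/-, with 1892, they were 602 to 1584, and 3563 under neqc, 3162 with a trend and 557 on the compared arrays. The array left alone in its group is then taken to scatter as the other groups do.

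With the replicate number as a block, members called stayed at 9, 10, 10, 7 and 5 in the 5 planned comparisons, with 4296, 6612, 6276, 3900 and 5326 probes, and probes for WT M1 against the unstimulated group labelled iNOS-/- fell to 1208. Deviations of same-numbered arrays correlated between -0.038 and 0.025. These correlations compare probe intensities only. Whether same-numbered arrays came from the same mouse or were handled together was not tested.

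The share of higher among called probes for stimulation in WT was 59.3%, and 44.4% under neqc, 47.4% under quantile normalization and 49% with an intercept. With an intercept it moved from 47.5% to 58.4% between the M1 groups and from 46.1% to 59.7% for the difference in response, and under neqc from 71.8% to 45.2% for WT M1 against the unstimulated group labelled iNOS-/-. The intercept moved the median of all probes from -0.03 to 0.24 between the M1 groups, where the members' median was 1.498 and all 10 were called.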
